A study of Homo sapiens with 6 samples.

Results

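Polysome-bound RNA of the T47D breast cancer line was compared between hypoxia and normoxia across every gene that reached 1 RPKM (reads scaled to transcript length and library size) in at least 1 of the 2 T47D libraries. That rule kept 10647 of the 30726 genes in the table, or 34.7%. Of these, 9669 reached 1 RPKM in both libraries, 738 in hypoxia only and 240 in normoxia only. The filter's edge was crowded: 255 genes had their higher value between 1 and 1.1 RPKM and 297 had it between 0.9 and 1 RPKM, the nearest at 1.001 inside and 0.9994 outside.

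T47D is described by its submitters as a luminal A breast cancer line of wild-type genotype. It was grown in RPMI with 10% serum and insulin at 10 µg/mL, and held for 8 h either in 1% oxygen with 5% CO2 and 94% nitrogen (hypoxia) or in 21% oxygen (normoxia). Cycloheximide, a blocker of elongation, kept ribosomes on their mRNAs, lysates of equal protein were spun through sucrose gradients, and RNA from the polysome fractions was sequenced. The SUM1315 and SKBR3 breast cancer lines were held at the same 2 oxygen levels, which gave 6 libraries, 1 for each line and oxygen level. Culture differed between lines: SUM1315 had 5% serum with insulin at 10 µg/mL and EGF, and SKBR3 had 10% serum with no insulin listed, so line and medium cannot be told apart in any comparison of lines. With 1 T47D library a side there was no replicate check, so each T47D difference is a ratio between 2 libraries with no p-value. Polysomal RNA counts both how much of an mRNA a cell holds and how much of it carries several ribosomes. No total RNA was analysed here, so the 2 cannot be told apart. RPKM is scaled to library size, so each ratio compares shares of 2 RNA pools. A change in the total amount of polysomal RNA would not show.

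Cells sense oxygen through prolyl hydroxylases that mark HIF alpha subunits for destruction by VHL; at low oxygen HIF builds up, pairs with ARNT and binds the core sequence ACGTG or GCGTG near genes for glucose uptake, glycolysis, angiogenesis and mitophagy. Low oxygen also restrains mTORC1, the kinase that keeps mRNAs starting with a terminal oligopyrimidine (TOP) tract, chiefly those of ribosomal proteins and elongation factors, on polysomes. T47D is a standard model of luminal, hormone receptor positive disease, in which ESR1, PGR and GATA3 set the programme.

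The libraries carried the markers of their label. ESR1, the oestrogen receptor, was at 5.18 RPKM in T47D normoxia and 4.54 in hypoxia, and PGR, the progesterone receptor, at 9.94 and 11. GATA3, a luminal transcription factor, was at 108 and 143 RPKM. Of 20 mesenchymal and basal markers 4 reached 1 RPKM, with a sum of 18.6 RPKM in normoxia and 20.3 in hypoxia. ERBB2, the gene amplified in SKBR3, was at 8.12 and 8.76 RPKM in T47D against 743 RPKM in SKBR3 normoxia. Of 22 leukocyte and stromal markers 20 were in the table, 4 reached 1 RPKM and 9 were at 0 in both T47D libraries, among them PTPRC, CD3E, PECAM1 and COL3A1; their summed level was 8.76 RPKM in normoxia and 12.8 in hypoxia.

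Ratios below are log2((hypoxia RPKM + 1) / (normoxia RPKM + 1)), a scale that understates the change of low genes. Over all 10647 genes the median ratio was 0.05 and the SD 0.46, with 1 gene in 4 below −0.24 and 1 in 4 above 0.32. A ratio of 1 or more, a change of 2-fold on this scale, was met by 249 genes, 2.34% of those kept, and a ratio of −1 or less by 103 genes, 0.967%. The far tail lay on the high side: 22 genes were at 2 or more and 3 at 3 or more, and no gene was at −2 or less. The higher genes came from lower levels, with a median of 3.45 RPKM in normoxia and 10.7 in hypoxia, against 21.3 and 8.54 for the lower genes. The split of calls depended on the filter and the scale. Of the 352 calls 70.7% were higher, but the filter admits a gene through whichever library is high. With 1 RPKM or more in both T47D libraries, 188 genes were higher and 100 lower, or 65.3% higher. At a mean of 5 RPKM or more, 148 were higher and 92 lower, or 61.7% higher. The 2 libraries were also rescaled to equal summed RPKM, leaving ribosomal protein and mitochondrially encoded genes out of the sum. This shifted log2 RPKM ratios by −0.100, and 195 genes were then higher and 180 lower, or 52% higher. Near the threshold, 36 genes lay within 0.05 above 1 and 50 within 0.05 below it, and 29 lay within 0.05 past −1 with 34 just short of it.

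**Figure D1:**
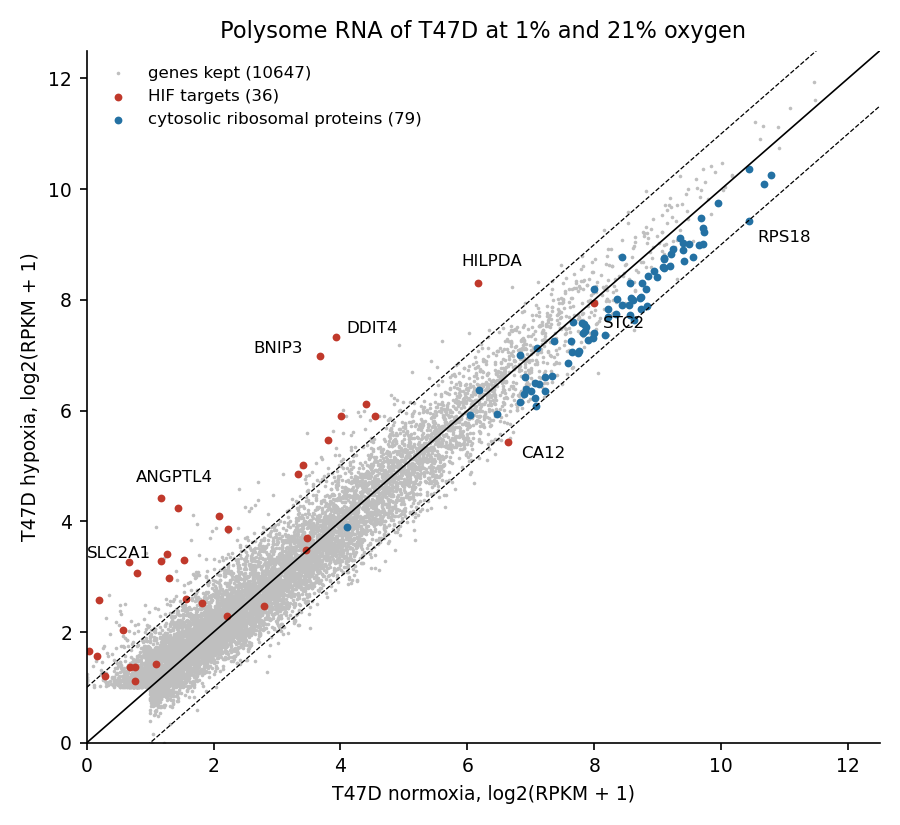
Each point is 1 gene, with its T47D normoxia level on the x axis and its hypoxia level on the y axis, both as log2(RPKM + 1); the solid line marks equal levels and the dashed lines a log2 ratio of 1 and −1. HIF targets (red, 36 genes) lie mostly above the upper dashed line, and cytosolic ribosomal proteins (blue, 79 genes) mostly just below the solid line.

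The strongest differences were in known HIF targets. Of 42 such genes 36 were kept; 24 were at a ratio of 1 or more and 1 at −1 or less, and their median was 1.62 against 0.05 for all genes kept. DDIT4, an inhibitor of mTORC1 (GRCh38 chr10:72273920-72276036, plus strand), was at 14.3 RPKM in normoxia and 159 in hypoxia, the highest ratio of any gene with a mean of 5 RPKM or more at 3.39 (counting SE 0.06). BNIP3, a mitophagy receptor (chr10:131966455-131982013, minus strand), was at 11.9 and 127 RPKM, a ratio of 3.31. ANGPTL4, a secreted inhibitor of lipoprotein lipase (chr19:8363289-8374373, plus strand), was at 1.26 and 20.3 RPKM, a ratio of 3.24. For all 3 genes hypoxia stood far above normoxia, by many times the counting error.

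The promoter windows of 6 HIF targets are shown because each holds the HIF core. The search covered ACGTG on either strand, from 250 bases before to 50 after the RefSeq start (GRCh38.p14), so that CACGT is the same core read on the other strand and CACGTG reads as the core both ways. Each run below is 60 bases ending upstream of the start, 5′ to 3′ on the gene's strand, with the core in capitals. They lie at chr10:72273772-72273831 (DDIT4, plus), chr10:131982024-131982083 (BNIP3, minus), chr4:185396671-185396730 (ANKRD37, plus), chr6:139374768-139374827 (CITED2, minus), chr11:18394463-18394522 (LDHA, plus) and chr9:35673868-35673927 (CA9, plus).
DDIT4: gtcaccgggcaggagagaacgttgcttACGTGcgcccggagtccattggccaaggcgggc
BNIP3: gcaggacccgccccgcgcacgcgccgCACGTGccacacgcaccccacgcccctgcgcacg
ANKRD37: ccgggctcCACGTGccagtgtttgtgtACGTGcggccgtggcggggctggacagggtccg
CITED2: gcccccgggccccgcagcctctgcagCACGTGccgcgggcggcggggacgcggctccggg
LDHA: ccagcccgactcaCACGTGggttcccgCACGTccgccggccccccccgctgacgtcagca
CA9: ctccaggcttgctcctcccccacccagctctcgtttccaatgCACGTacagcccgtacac

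The core was common in general. It was in 21.6% of all 27305 RefSeq promoters and in 28.1% of the 8076 kept genes that had one. Among genes at a ratio of 1 or more it was in 63 of 157 promoters (40.1%), and among those at 2 or more in 8 of 15 (53.3%). The genes at −1 or less held it in 23 of 80 (28.7%), near the share of all kept genes, and the HIF targets in 18 of 31 (58.1%). The second form, GCGTG on either strand, which can overlap the first, was in 52.3% of kept promoters, 56.7% of the higher and 52.5% of the lower. A match is a stretch of letters, not a measured binding site.

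CITED2, a HIF-induced protein that competes with HIF for its coactivators, was at 29.5 RPKM in normoxia and 145 in hypoxia. ANKRD37, an ankyrin repeat protein, was at 1.24 and 8.75 RPKM. CA9, the carbonic anhydrase used as a hypoxia marker in tumours, stayed just under the filter at 0 RPKM in normoxia and 0.946 in hypoxia. The hypoxia value is worth about 34 reads and was at least 12.3-fold higher than the level that 3 reads give in the normoxia library. EGLN3, an oxygen sensing hydroxylase, also stayed under the filter at 0.236 and 0.868 RPKM. Both genes were low in T47D at either oxygen level and higher in the hypoxia library.

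Several HIF targets were level or lower. CA12, the carbonic anhydrase of luminal cells (chr15:63321378-63382161, minus strand), was at 99.3 RPKM in normoxia and 42.4 in hypoxia, a ratio of −1.21. It was the only HIF target at −1 or less, and its ratio was 0.02 in SUM1315 and −0.37 in SKBR3. STC2, a secreted glycoprotein, was at 255 and 246 RPKM in T47D, a ratio of −0.05, against 1.91 in SUM1315. PLOD2, a collagen lysyl hydroxylase, was at 9.94 and 10.1 RPKM, a ratio of 0.02, against 1.59 in SUM1315. JMJD6, a dioxygenase, was at 5.95 and 4.56 RPKM. NDRG1, a stress-induced cytoplasmic protein, stood at the other end of the list with 0.145 RPKM in normoxia and 4.95 in hypoxia.

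Of the 9 kept oxygen sensing genes 2 were at 1 or more. EGLN1, the main oxygen sensing hydroxylase, was at 9.62 RPKM in normoxia and 31.4 in hypoxia, and CITED2 is given above. Of the HIF subunits, HIF1A was at 2.61 and 2.74 RPKM, ARNT at 3.30 and 4.18, and EPAS1, which encodes HIF-2 alpha, at 1.98 and 3.13, with ratios of 0.05, 0.27 and 0.47. VHL, the ligase subunit that recognises hydroxylated HIF, was at 19.9 and 22.7 RPKM. HIF1AN, the asparagine hydroxylase of HIF, was at 15.4 and 11.4 RPKM and P4HTM, a membrane prolyl hydroxylase, at 4.56 and 3.39.

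Glucose uptake and glycolysis was higher almost throughout: 21 of 22 kept genes had a ratio above 0, 14 of them 1 or more, with a median of 1.15. PFKFB4, which makes the activator of phosphofructokinase, was at 1.72 RPKM in normoxia and 17.9 in hypoxia. PFKP, the platelet form of phosphofructokinase, was at 2.20 and 16.3 RPKM, and SLC2A1, the glucose transporter GLUT1, at 0.740 and 7.38. At the lactate end of the pathway LDHA was at 30.8 and 70.5 RPKM and the lactate exporter SLC16A3 at 3.23 and 16.1. LDHB was the single glycolysis gene below 0, at 3.28 and 3.23 RPKM. PFKL, the liver form of phosphofructokinase, was at 9.92 and 11.7 RPKM and PGAM1 at 455 and 522.

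Control of pyruvate entry into mitochondria was split, with 3 of 12 kept genes at 1 or more and a median of −0.01. PDK1, the kinase that switches off pyruvate dehydrogenase, was at 0.491 RPKM in normoxia and 3.11 in hypoxia. The enzyme's subunits PDHA1 (20.4 and 10.5 RPKM) and PDHB (34.9 and 19.9) lay the other way. PDK2, a kinase like PDK1 and not a subunit, was also lower, at 10.3 and 6.86 RPKM. Of 10 glycogen genes 2 were at 1 or more, GYS1 (glycogen synthase, 2.39 and 7.17 RPKM) and PGM1 (2.69 and 7.04). GYG1, the glycogen primer, was lower at 8.82 and 3.95 RPKM, while PPP1R3B, a glycogen-targeting phosphatase subunit, was at 1.62 and 3.87. Its relative PPP1R3D was at 5.89 and 3.57 RPKM and UGP2, which makes UDP-glucose, at 7.70 and 6.45.

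BNIP3 and its homologue BNIP3L (15.1 and 59.2 RPKM) were the 2 of 11 mitophagy receptors at 1 or more; the list's median was 0.07. PINK1, the kinase of the other mitophagy route, was at 8.34 RPKM in normoxia and 5.27 in hypoxia, and PHB2 at 29.9 and 18.9. The receptor FKBP8 was at 123 and 176 RPKM and CALCOCO2 at 3.62 and 3.18. Among 8 lipid droplet genes 3 were at 1 or more. HILPDA, an inhibitor of the lipase PNPLA2, was already high in normoxia at 71.1 RPKM and reached 316 in hypoxia, whereas PNPLA2 itself was at 23.9 and 15.4 and the droplet coat protein PLIN3 at 29 and 13.5. AGPAT2, an enzyme of triglyceride synthesis, was at 24.6 and 58.5 RPKM, and ABHD5, the activator of PNPLA2, at 10.5 and 8.50.

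Secreted and vascular signals included 5 of 18 genes at 1 or more and none at −1 or less. VEGFA, the main angiogenic factor, was low at 1.47 RPKM in normoxia and 6.87 in hypoxia. ADM (adrenomedullin, a vasodilator) was at 9.11 and 27.9 RPKM, EFNA3 at 64.3 and 168, and VEGFB at 26 and 55.6. EFNA1, a related ephrin, lay the other way at 48.0 and 33.8 RPKM, as did SEMA3C at 16.8 and 12.2 and TGFB3 at 17.2 and 13.1. P4HA1, which hydroxylates collagen prolines, was at 1.90 and 8.86 RPKM and PLOD1 at 1.96 and 5.04, the 2 of 10 collagen modifying genes at 1 or more. P4HA2 was at 0.599 and 1.58 RPKM, P3H4 at 18.1 and 13.8, P4HB at 104 and 83.5 and LOXL3 at 1.37 and 0.983.

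**Figure D2:**
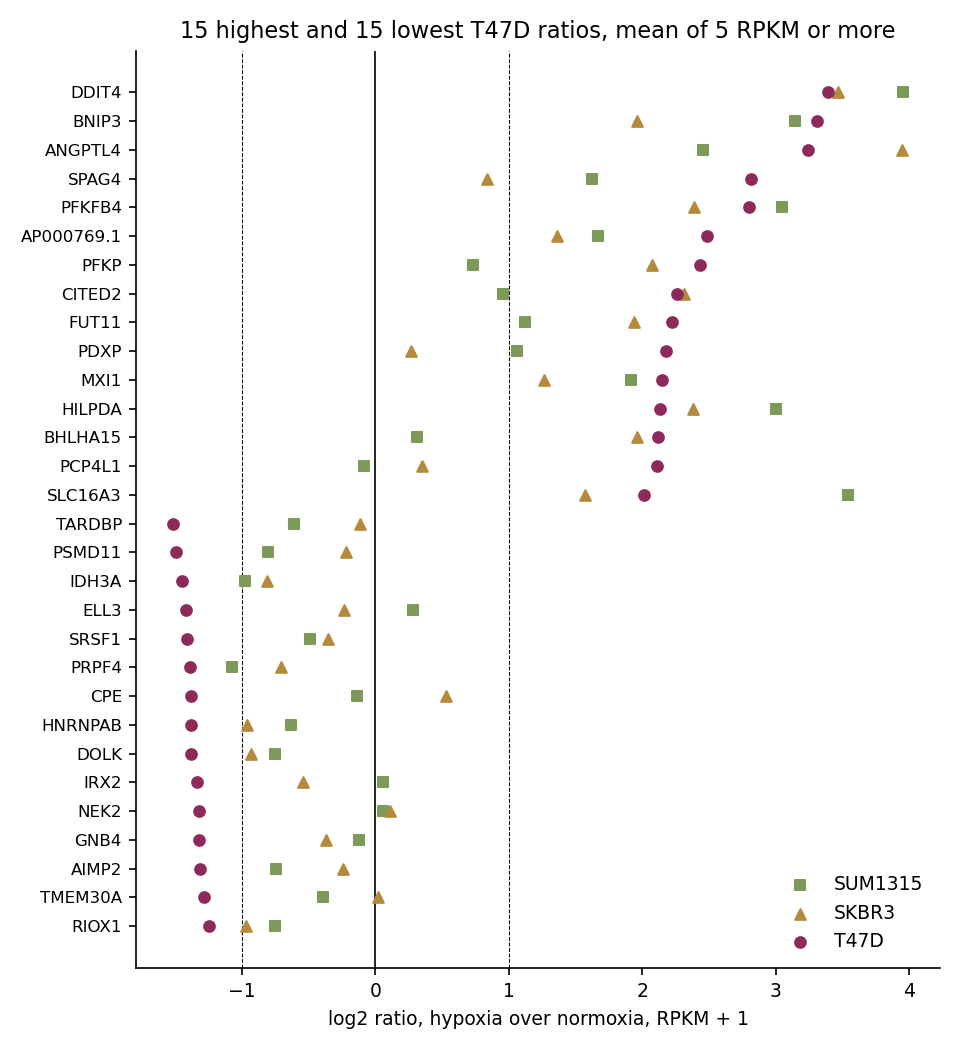
The x axis is the log2 ratio of hypoxia over normoxia (RPKM + 1) for the 15 highest and 15 lowest T47D genes with a mean of 5 RPKM or more, in T47D (circles), SUM1315 (squares) and SKBR3 (triangles), 1 library a side each. Of the 15 highest, 9 are at 1 or more in both other lines; of the 15 lowest, T47D is the lowest of the 3 lines in all 15, as the choice by T47D ratio favours.

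Of the 15 genes with the highest ratios at a mean of 5 RPKM or more, 7 were on the list of 42 HIF targets and 8 were not. Absence from that list does not show that HIF leaves a gene alone. SPAG4, a nuclear envelope protein, was at 1.13 RPKM in normoxia and 14 in hypoxia. FUT11, a fucosyltransferase, was at 2.32 and 14.5 RPKM, and PDXP, a pyridoxal phosphatase, at 4.29 and 22.9. MXI1, a repressor that competes with MYC for MAX, was at 1.42 and 9.70 RPKM, and BHLHA15, a transcription factor of secretory cells, at 1.34 and 9.14. AP000769.1, a transcribed pseudogene on chromosome 11, was at 0.912 and 9.70 RPKM, where reads may be shared with other copies or overlapping transcripts. Transcription factors of the clock and bHLH group had 3 of 14 genes at 1 or more: BHLHE40 at 12.9 and 43.6 RPKM, CIART at 1.48 and 4.90 and NFIL3 at 2.78 and 6.66. The core clock genes CLOCK (1.51 and 1.17 RPKM), CRY1 (2.74 and 1.87) and NR1D2 (4.69 and 3.54) were the lowest of the list. CIART, a clock repressor, had a ratio of −0.05 in SUM1315 and 0.82 in SKBR3.

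Early response genes, which are induced within minutes to hours of a stimulus, had a median of 0.73, with 20 of 23 above 0 and 4 at 1 or more. FOS was at 0.234 RPKM in normoxia and 3.77 in hypoxia, and JUND, its partner in AP-1, at 26.8 and 77.2. IER3 was at 161 and 325 RPKM, while MCL1, a survival factor, was at 19.9 and 15.9. DUSP5, a MAP kinase phosphatase, was at 9.19 and 7.44 RPKM and FOSL1 at 1.67 and 1.65. MYC itself was at 7.10 and 14.6 RPKM, a ratio of 0.94, just short of the threshold. JUND differed between lines, with ratios of 1.49 in T47D, 0.64 in SUM1315 and −0.17 in SKBR3.

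Of 13 genes that restrain mTORC1 or repress translation under its control, DDIT4, which acts upstream, and EIF4EBP1, which acts downstream, were the 2 at 1 or more. EIF4EBP1, the repressor that holds the cap-binding protein eIF4E when mTORC1 is off, was at 176 RPKM in normoxia and 396 in hypoxia, a ratio of 1.16 against 0.30 in SUM1315 and 0.06 in SKBR3. The other 11 lay between −0.13 and 0.46, with TSC1 at 1.54 and 1.87 RPKM and EIF4EBP2 at 19.8 and 27.7. The lowest were TBC1D7 (5.6 and 5.02 RPKM), NPRL2 (6.05 and 5.5) and SESN1 (1.43 and 1.27). RPS6KB2, an S6 kinase that mTORC1 activates, was the 1 of 22 insulin and growth factor genes past the threshold, at 14.1 and 35.6 RPKM, with ratios of 0.28 and 0.21 in SUM1315 and SKBR3. PIK3R1, a regulatory subunit of PI3 kinase, was at 1.83 and 3.51 RPKM and STAT3 at 1.36 and 2.44. RPS6KA1 (5.57 and 3.07 RPKM), PIK3CB (7.83 and 5.37) and GRB10 (7.53 and 5.19) were the lowest of that list.

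Most ribosomal protein mRNAs were lower in T47D hypoxia. All 79 were kept and 74 had a ratio below 0, with a median of −0.53, though 1 alone reached −1. RPS18 was at 1383.5 RPKM in normoxia and 688 in hypoxia, RPS6 at 393 and 197, RPL27A at 134 and 67.0, and RPL26 at 427 and 227. Together the 79 genes made up 11.8% of summed RPKM in normoxia and 8.14% in hypoxia. Members of the same ribosome did not share 1 ratio: RPL41 was at 346 and 438 RPKM, RPS20 at 71.3 and 82.2, RPL3 at 253 and 291 and RPL4 at 112 and 127. The list's median was −0.45 in SUM1315 and −0.79 in SKBR3, so T47D lay between the other lines. Many ribosomal protein genes have processed pseudogenes, and the sources used here do not say how multiply mapped reads were assigned.

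The start sequences of 5 genes with a TOP tract, with ratios well below and well above 0, are shown beside that of RPL3, whose run of 4 pyrimidines is too short to count as one here. The first 16 bases from the RefSeq start (GRCh38.p14) are given with the unbroken run of pyrimidines in capitals. They lie at chr17:8383178-8383193 (RPL26, minus), chr9:19380221-19380236 (RPS6, minus), chr6:33272075-33272090 (RPS18, plus), chr22:39319608-39319623 (RPL3, minus), chr19:3985448-3985463 (EEF2, minus) and chr12:53006456-53006471 (EIF4B, plus).
RPL26: CTCTTCCCTTTTgcgg
RPS6: CTCTTTTCCgtggcgc
RPS18: CTCTCTTCCacaggag
RPL3: CTCTaccggcgggatt
EEF2: CTCTTCCgccgtcgtc
EIF4B: CTTTTgcgttctcttt

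RPL26, RPS6 and RPS18 start with runs of 12, 9 and 9 pyrimidines and had ratios of −0.91, −0.99 and −1.01. EEF2, the translocase of elongation, starts with 7 and was at 103 RPKM in normoxia and 300 in hypoxia, a ratio of 1.53. EIF4B, a helicase cofactor with a run of 5, was at 25.3 and 50.5 RPKM. A start of C followed by 4 pyrimidines was present in 4.04% of all promoters in the table, in 43 of 63 ribosomal proteins (68.3%) and in 10 of 14 translation factors known as TOP mRNAs (71.4%). The 436 kept genes with such a start that encode no ribosomal protein had a median of 0.08, against 0.03 for the 7597 without it. On this annotation, the median of genes with such a start that are not ribosomal proteins did not share the low ratios of the ribosomal proteins. Single genes could: TPT1, which starts with 7 pyrimidines, had a ratio of −0.66. Such a start was in 5.93% of the promoters of all kept genes, and a match alone does not make a gene a TOP mRNA.

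Other parts of the translation machinery were mixed. Of 22 TOP translation factors 14 were above 0 and the median was 0.24. EIF3A was at 3.77 RPKM in normoxia and 9.30 in hypoxia and EEF1A1 at 116 and 219, while TPT1 was at 112 and 70.3 EEF1B2 at 138 and 96.1 and EIF3K at 110 and 76.7. Of 31 other initiation factors 18 were below 0 and the median was −0.25. EIF2B2 was at 9.95 and 4.76 RPKM and EIF2S1, the subunit phosphorylated in the integrated stress response, at 16.8 and 8.96. EIF3J was at 71.3 and 43.6 RPKM, and EEF2K, the kinase that inactivates EEF2, at 1.83 and 2.97. EIF3C was at 8.47 and 20.1 RPKM, but it has a near-identical copy that could share its reads.

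Ribosome assembly had a median of −0.18 over 96 factors, none of them past 1 either way. NIFK was at 15.5 RPKM in normoxia and 7.37 in hypoxia, RRS1 at 34.5 and 17.2, and NOC4L at 15.4 and 7.53. At the other end NAT10, an RNA acetyltransferase, was at 2.36 and 5.17 RPKM, NOP53 at 14.6 and 25.2, NMD3, an export adaptor, at 3.19 and 5.73 and NCL (nucleolin) at 6.68 and 11.1. Of 14 RNA polymerase I genes 9 were below 0 with a median of −0.28, led by POLR1F at 10.8 and 6.31 RPKM, POLR1C at 4.13 and 2.43 and POLR1E at 5.99 and 3.80. TTF1 (3.18 and 3.98 RPKM), POLR1D (7.05 and 7.84) and TAF1C (3.03 and 3.33) were the highest. Mitochondrial ribosomal proteins had a median of −0.16 and 53 of 77 were below 0, with MRPL15 at 83.1 and 41.8 RPKM, MRPS35 at 64.1 and 33.0 and MRPL39 at 49.6 and 25.7. MRPL57 was at 27.7 and 43.2 RPKM, MRPL33 at 15.9 and 23.7 and MRPL14 at 151 and 215.

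**Figure D3:**
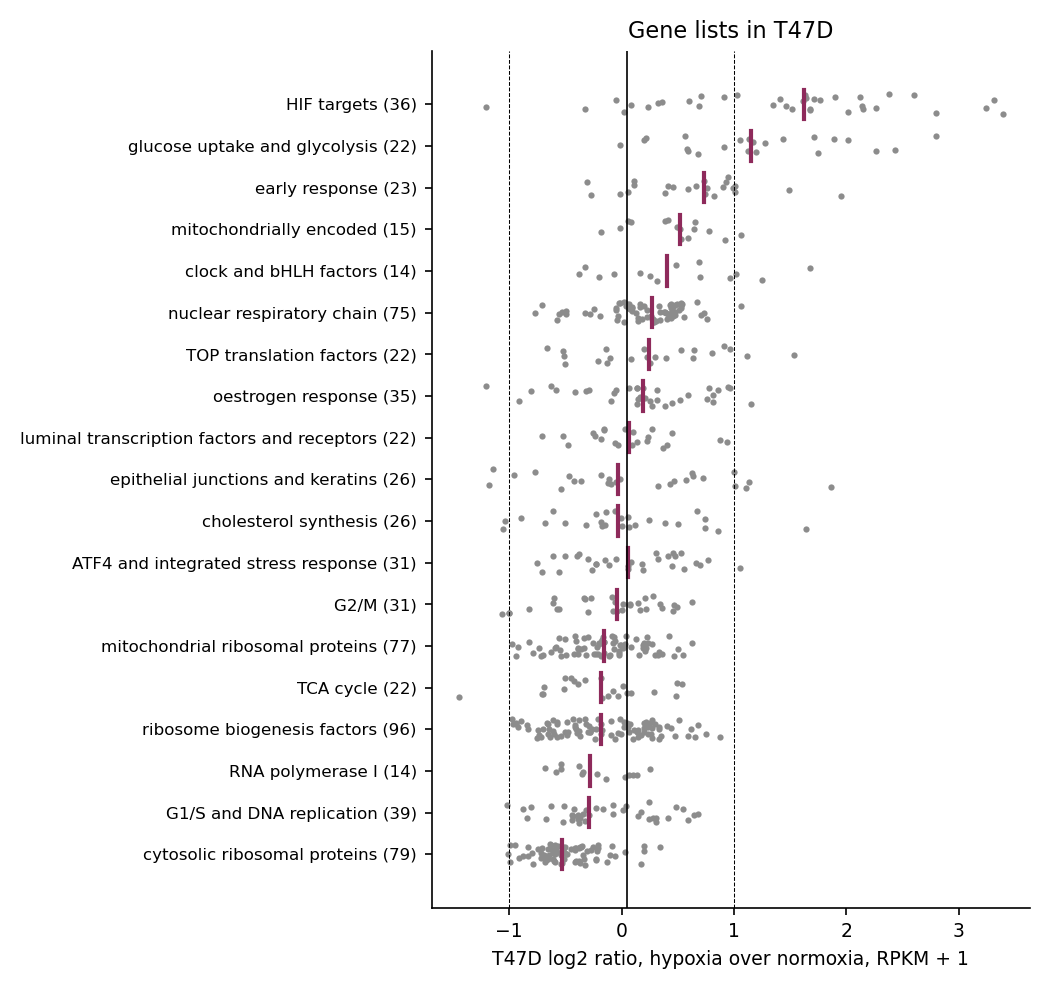
Each grey point is 1 gene of the list named on the y axis (number of kept genes in brackets) at its T47D log2 ratio of hypoxia over normoxia on the x axis; purple bars are list medians, dashed lines mark −1 and 1, and the solid line is the median of all 10647 genes, 0.05. HIF targets (1.62) and glycolysis (1.15) lie to the right and cytosolic ribosomal proteins (−0.53) to the left.

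Most respiratory chain genes were higher. Of 75 nuclear encoded subunits 58 had a ratio above 0, with a median of 0.27, against −0.16 in SUM1315 and 0.03 in SKBR3, though 1 alone reached 1. UQCR11, a small subunit of complex III, was at 29.8 RPKM in normoxia and 63.2 in hypoxia, UQCRQ at 99.5 and 169, and NDUFA3 at 18.9 and 32.1. The 3 lowest members of the list were ATP synthase subunits: ATP5F1C was at 169 and 98.8 RPKM, ATP5PB at 109 and 65.9 and ATP5F1B at 256 and 172. The 15 mitochondrially encoded genes had a median of 0.52 against 0.08 in SUM1315 and −0.18 in SKBR3. They made up 3.61% of summed RPKM in T47D normoxia and 4.59% in hypoxia. Cytosolic ribosomes do not translate these RNAs, and how they came to be in the fractions was not tested. Whether the purity of the fractions differed between the 2 T47D libraries was not tested either. MT-ND6 was at 369 and 772 RPKM and MT-RNR1, an RNA of the mitochondrial ribosome, at 89.5 and 170, with MT-RNR2 at 159 and 273, while MT-ND1 was at 602 and 532, MT-ND3 at 715 and 708 and MT-ND2 at 1157 and 1202. The list for the cytochrome oxidase switch, in which LONP1 removes an oxidase subunit, had 6 kept genes. Their median was 0.36, and −0.02 and −0.03 in SUM1315 and SKBR3. The alternative subunit COX4I2 was not among them, so this median does not measure the switch itself. LONP1 was at 9.28 and 18.3 RPKM, ISCU at 27.1 and 47.7 and COX7A2 at 160 and 221, against COX4I1 at 281 and 300, HIGD1A at 43.8 and 46.5 and HIGD2A at 145 and 174. The TCA cycle did not share this, with 15 of 22 below 0: IDH3A was at 10.5 and 3.23 RPKM, IDH2 at 147 and 89.5 and SUCLG1 at 21.4 and 12.8. OGDH (2.25 and 3.73 RPKM) and PC (0.589 and 1.22) were among its highest.

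Coding length moved with these ratios in T47D. Among 5125 genes with a mean of 5 RPKM or more and a coding transcript, split into 5 groups of like size by coding length, the group with the shortest coding sequences (75 to 570 nt) had a median of 0.26, and the next groups −0.08, −0.24, −0.17 and 0.00. In SUM1315 the same groups lay between −0.08 and 0.01, and in SKBR3 between −0.16 and −0.02. In the shortest group 76.5% of the 978 genes that encode no ribosomal protein were above 0, whereas 3 of the 51 ribosomal proteins were. Of the nuclear respiratory chain 52 of 71 genes lay in the shortest group, and with each ratio centred on genes of like coding length, a choice made after seeing the data, the list's median was 0.07 in place of 0.27 and that of the cytochrome oxidase switch 0.00 in place of 0.36. The ribosomal protein median was −0.64 and the HIF target median 1.61 on that scale. GC content also moved with the T47D ratio, with medians from −0.16 in the lowest of 5 groups to 0.15 in the highest. The same 2 groups had medians of −0.112 and 0.041 in SUM1315 and −0.175 and −0.079 in SKBR3, so this rise was not particular to T47D. The part of coding length or GC content in the lists' values was not tested otherwise.

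**Figure D4:**
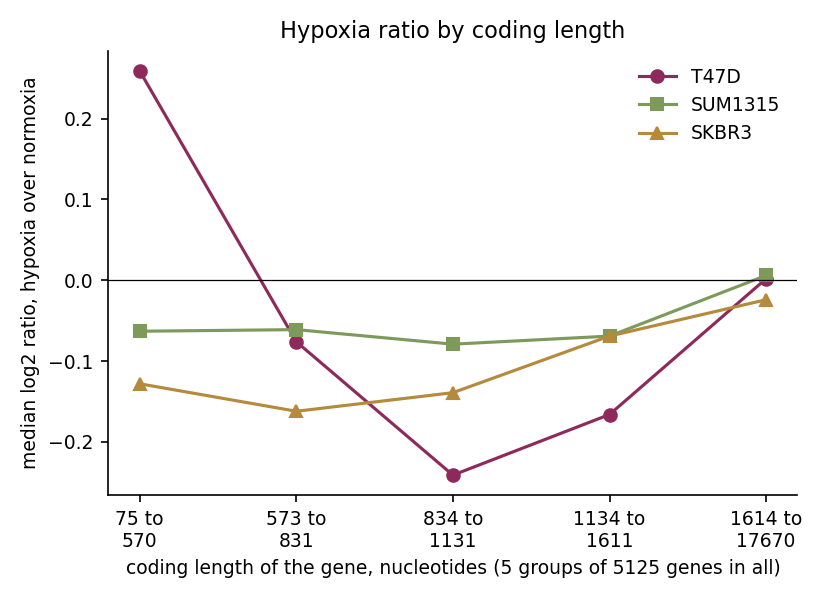
Median log2 ratio of hypoxia over normoxia (y axis) in 5 groups of 5125 genes in all by coding length in nucleotides (x axis), for T47D (circles), SUM1315 (squares) and SKBR3 (triangles), 1 library a side each. T47D starts at 0.26 for the shortest genes and is lowest at −0.24 in the middle group, while the other lines stay between −0.16 and 0.01.

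The lowest T47D ratios at a mean of 5 RPKM or more belonged to 15 genes of varied function, given here by name and not as a group. TARDBP, the RNA-binding protein TDP-43 (chr1:11012344-11026420, plus strand), was at 35.3 RPKM in normoxia and 11.7 in hypoxia, a ratio of −1.52 (counting SE 0.04) against −0.61 in SUM1315 and −0.12 in SKBR3. PSMD11, a proteasome lid subunit, was at 23.4 and 7.68 RPKM and SRSF1, a splicing factor, at 67.9 and 24.9. HNRNPAB, an RNA-binding protein, was at 266 and 101 RPKM, and PRPF4, a subunit of the U4/U6 spliceosomal particle, at 22.5 and 7.96. Also on this list were ELL3, an elongation factor of RNA polymerase II (24.9 and 8.71 RPKM), DOLK, the dolichol kinase (28.1 and 10.2), AIMP2, a scaffold of the tRNA synthetase complex (34.7 and 13.4), and the flippase subunit TMEM30A (16.9 and 6.37). RIOX1, a ribosomal dioxygenase that itself uses oxygen, was at 16.4 and 6.32 RPKM, the 1 of 19 chromatin 2-oxoglutarate dioxygenases at −1 or less. IRX2, a homeobox factor (18.2 and 6.61 RPKM), GNB4, a G protein subunit (18.2 and 6.70), and CPE, a peptide-processing enzyme (49.1 and 18.2), were also among the 15, as were IDH3A, given above, and NEK2, given below.

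Of the SR proteins and CLK kinases 11 of 24 were above 0, with CLK2, a kinase of splicing factors, at 5.78 RPKM in normoxia and 11.7 in hypoxia CLK3 at 1.05 and 2.45 and CLK1 at 0.914 and 1.86. The splicing factors TRA2B (18.9 and 11.2 RPKM) and SRSF10 (11.6 and 6.86) came next after SRSF1 at the low end. In the chromatin dioxygenases 15 of 19 were above 0, with KDM3A, a histone demethylase and HIF target, at 0.224 and 1.30 RPKM ALKBH5, an RNA demethylase, at 21.3 and 42.8 and KDM4B at 2.53 and 4.77. RIOX2, the homologue of RIOX1, was at 7.07 and 3.70 RPKM.

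Cell cycle genes lay on both sides of 0. Of 31 G2/M genes 3 were at −1 or less: CCNB2 at 37.1 RPKM in normoxia and 17.3 in hypoxia, CDK1 at 40.4 and 19.7, and CCNA2 at 34.1 and 16.5. Their ratios were between −0.14 and 0.03 in SUM1315 and between −0.59 and −0.26 in SKBR3. KIF2C (3.06 and 5.26 RPKM), KIF11 (4.13 and 6.24) and ANLN (4.87 and 7.10) lay on the other side, and the list's median was −0.04. NEK2, a centrosome kinase, was at 21.4 and 7.97 RPKM in T47D, with ratios near 0 in both other lines. Of 39 G1/S and replication genes 24 were below 0 and the median was −0.29, with PCNA, the replication clamp, at 179 and 87.9 RPKM RFC3 at 15.6 and 8.01, FEN1 at 47.4 and 26 and CCND1 (cyclin D1) at 51.1 and 28.8. CDKN1A, the inhibitor p21, was at 47 and 75.9 RPKM, RRM1 at 3.70 and 6.34 and CDT1 at 11.4 and 17.8. Among 22 p53 targets the exonuclease AEN was at 7.37 and 3.08 RPKM, the death receptor FAS at 7.38 and 3.78 and RRM2B at 11.2 and 6.49. The kinase PLK2 was at 17.3 and 47.7 RPKM, BBC3 (PUMA) at 2.04 and 4.45 and BTG2 at 3.94 and 7.38.

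Stress pathways showed no common direction. ATF4, the effector of the integrated stress response, was at 62.8 RPKM in normoxia and 79.0 in hypoxia, and the list of 31 genes had a median of 0.06 with 1 gene, SHMT2 (12.9 and 27.9 RPKM), at 1 or more. ATF5, another factor of this response, was at 47.2 and 27.7 RPKM XPOT, a tRNA exporter, at 29.3 and 17.5 and the leucine transporter SLC7A5 at 246 and 161. EPRS1 was at 4.21 and 7.90 RPKM and the amino acid transporter SLC38A2 at 7.81 and 13.3. Of 22 endoplasmic reticulum chaperones and unfolded protein response genes 10 were above 0: CANX (calnexin) was at 17 and 29.7 RPKM and HSPA5 (BiP) at 20.7 and 35.8 and EDEM1 at 4.69 and 7.84, while DNAJB11 was at 54.9 and 23.0, PDIA6 at 24.9 and 15.2 and DNAJC3 at 4.12 and 2.25. Cytosolic chaperones had 3 of 28 at 1 or more and 2 at −1 or less. HSP90AB1 was at 47.6 and 153 RPKM and HSPD1 at 10.3 and 27.5, whereas AHSA1, which stimulates HSP90, was at 85.5 and 36.0 and HSPA14 at 19.5 and 8.56. HSPA1B was at 17.8 and 39.5 RPKM, but it and HSPA1A are near-identical copies whose reads cannot be told apart.

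Lipid synthesis was also mixed. Of 26 cholesterol genes 1 was at 1 or more and 2 at −1 or less. INSIG2, which retains the sterol sensor in the endoplasmic reticulum, was at 3.68 RPKM in normoxia and 13.6 in hypoxia, and its partner INSIG1 at 11.3 and 21.3. The enzyme MVK was at 17.7 and 8.11 RPKM and ACAT2 at 27.6 and 14.4. Fatty acid synthase, FASN, was at 8.85 and 19.7 RPKM the desaturase SCD at 69.6 and 117 and ACLY at 5.99 and 10.5, while the elongases ELOVL1 (73.1 and 42.4), ELOVL5 (27.2 and 17.5) and ELOVL6 (6.18 and 3.88) were lower.

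Of 22 luminal transcription factors and receptors none was past 1 either way, and the median was 0.06. FOXA1, the pioneer factor of the oestrogen receptor, was at 55.5 RPKM in normoxia and 39.5 in hypoxia, TFAP2C at 27.1 and 16.3 and ELF5 at 29.1 and 20.0. ZNF217 was at 4.73 and 9.97 RPKM, ELF3 at 1.97 and 4.44 and XBP1, an abundant luminal factor, at 437 and 595. Oestrogen response genes had a median of 0.19, with 24 of 35 above 0, 1 at 1 or more and 1 at −1 or less. TFF3, a secreted trefoil peptide, was at 449 and 1001 RPKM, TFF1 at 205 and 352, GREB1, a receptor cofactor, at 7.81 and 11.7 and CCN5 at 0.233 and 1.41. CA12, HSPB8 and CCND1 were the 3 lowest of that list, with ratios of −1.21, −0.91 and −0.80. CA12 belongs to the HIF targets as well.

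The epithelial list lay in both directions, with 4 of 26 genes at 1 or more and 2 at −1 or less. DSP, the desmosome anchor, was at 2.91 RPKM in normoxia and 13.2 in hypoxia, JUP (plakoglobin) at 11.3 and 26, and KRT19 at 282 and 611. CLDN1, a tight junction protein, was at 395 and 174 RPKM, EPCAM at 48.4 and 21.4, and PKP3, a desmosome plaque protein, at 45.2 and 22.8. CDH1 (E-cadherin) was at 6.12 and 10.8 RPKM. SKBR3 had ratios of 1.94 for DSP, 1.03 for JUP and 1.47 for KRT19, whereas SUM1315 had 0.02, 0.26 and −0.25.

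Genes expressed in T47D only, under 1 RPKM in all 4 libraries of the other lines, numbered 787. Of these 30 were at 1 or more (3.81%, against 2.34% of all genes kept) and 3 at −1 or less (0.381%, against 0.967%). Their median was 0.28, against 0.05 for all genes kept. Among the 271 with a mean of 2 RPKM or more, 15 were at 1 or more, none at −1 or less, and the median was 0.26. The filter admits a gene through whichever library is high. Of all genes kept, 738 passed in hypoxia only and 240 in normoxia only. No background of genes at like levels was taken, so these shares and medians cannot be read as a trait of T47D-only genes. APLN, which encodes the secreted peptide apelin (chrX:129645259-129654937, minus strand), was at 0.270 RPKM in normoxia and 5.33 in hypoxia. PCP4L1 (chr1:161258727-161285450, plus strand) was at 10.1 and 47.1 RPKM, and the phosphatase DUSP15 at 0.437 and 4.59. In the other lines all 3 were at or below 0.169 RPKM, except PCP4L1 in SKBR3 hypoxia at 0.437. RIPPLY3, a transcriptional corepressor, was at 3.02 and 9.03 RPKM, and the noncoding genes MELTF-AS1 (0.983 and 4.15) and AC079140.6 (0.879 and 3.74) completed the 6 highest. MELTF-AS1 is an antisense gene, and the sources used here do not say whether counting used strand.

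The lowest T47D-only ratios with a mean of 2 RPKM or more were CT45A2 at 4.19 RPKM in normoxia and 1.71 in hypoxia, HSPB8 at 101 and 53 and BNIPL at 14.7 and 7.97. CCDC160 was at 4.03 and 1.96 RPKM, GAGE12E at 3.98 and 1.96 and SOWAHA at 11.2 and 6.46. HSPB8 is a small heat shock protein and an oestrogen response gene. CT45A2 and GAGE12E belong to clustered cancer-testis families of near-identical copies, so their values are uncertain.

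The T47D calls were set beside the other lines. Of the 249 higher genes 191 were kept in SUM1315, where 67 (35.1%) were also at 1 or more against a background of 1.75% there, and 197 in SKBR3, where 76 (38.6%) were, against 2.31%. Of the 169 kept in both, 39 were at 1 or more in all 3 lines, and 21 were under 0.5 in both other lines. Of the 103 lower genes 92 were kept in SUM1315, where 3 (3.26%) were also at −1 or less against a background of 0.1%, and 99 in SKBR3, where 4 (4.04%) were, against 0.699%. Of the 91 kept in both, 0 were at −1 or less in all 3 lines, and 34 had ratios above −0.5 in both other lines. Over genes with a mean of 5 RPKM or more in both lines, T47D ratios correlated with those of SUM1315 at r = 0.65 (rho = 0.60, 4291 genes) and of SKBR3 at r = 0.50 (rho = 0.43, 4404 genes). These are across genes, which are not independent replicates, from 1 library a side.

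Whether T47D differed from the other lines was tested with limma on log2(RPKM + 1) in all 6 libraries, with cell line as a block and the other 2 lines as replicates of the oxygen effect. Of 10253 genes tested, 0 passed an adjusted p of 0.05 (0% called), and 523 (5.1%) had an unadjusted p under 0.05. The smallest adjusted p, 0.0849, was that of RNA5-8SN2, a ribosomal RNA gene with near-identical copies that was at 29.4 RPKM in T47D normoxia and 14.9 in hypoxia, and at 15.8 and 41.5 in SUM1315. With 1 residual degree of freedom a missed threshold does not show that the lines responded alike. The largest differences among genes with a T47D mean of 5 RPKM or more did not pass either. KCNS3, a potassium channel subunit, was at 7.51 and 27.8 RPKM in T47D. Its log2 ratio was 1.69 above the mean ratio of the other lines (limma adjusted p = 0.41). TXNIP, a glucose-responsive inhibitor of thioredoxin, was at 3.12 and 13.6 RPKM in T47D, with a ratio 1.61 above that mean (limma adjusted p = 0.41). In SKBR3 the level of TXNIP was higher than in T47D, at 16.1 and 21.8 RPKM. AC093001.1, an antisense gene, was at 161 and 293 RPKM (difference 1.68, limma adjusted p = 0.72). On the lower side CPE had a difference of −1.58 (limma adjusted p = 0.49), and RNA5-8SN3, at 80.1 and 54.8 RPKM, a difference of −1.66 (limma adjusted p = 0.98).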

How the data were processed

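Polysomal RNA was sequenced from 6 libraries, of which the 2 of T47D are described here; nothing in the labels replicates a line. The authors deposited 1 table of RPKM values per gene. Per the submitters' processing notes, reads were trimmed with Trimmomatic, aligned with HISAT2 to GRCh38, handled with SAMtools and quantified in Partek. The sources used here give no version, annotation, strand setting or read length.

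From the deposited RPKM, log2((hypoxia + 1) / (normoxia + 1)) was computed with a pseudocount of 1, which shrinks ratios of low genes; 1 RPKM in at least 1 T47D library was required and a log2 ratio of 1 counted as a call. The difference between lines was tested with limma 3.58.1 in R 4.3.3 (trended, two-sided, Benjamini-Hochberg over all genes with 1 RPKM or more in at least 3 of 6 libraries). Simulated data for that comparison covered 10253 genes. Of these, 90 of 100 genes changed by 1.5 and 95 of 100 changed by 2.5 (log2) were recovered, with 12 false calls. The simulated noise was normal and drawn from the variances that the same model had fitted. The recovery therefore checks the procedure and does not give the test's power on the real libraries.

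Total counts are not in the file. RPKM multiplied by transcript length came out within 0.02 of a whole number of steps for 59.7% to 63.1% of the genes used for this check per library, where 4% would by chance, too few to treat values as counts. The step puts 1 RPKM on a 1 kb transcript at about 22.2 reads or read pairs in T47D hypoxia and 24.1 in normoxia, so that counting alone gives a log2 ratio an SE of 0.16 at 5 RPKM and 0.09 at 20 RPKM on 1 kb. On 1 kb, 3 reads correspond to 0.135 and 0.124 RPKM. These errors cover counting only and assume RefSeq or GENCODE lengths near those the authors used.

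Gene features came from GENCODE release 29 (9504 of 10647 genes, 89.3%) and promoters from RefSeq GRCh38.p14 (8076 genes). The members and the 46 gene lists were chosen with earlier results of these data known, so the lists are described by counts and medians and not tested. Named genes were the 15 highest and 15 lowest ratios at a mean of 5 RPKM or more, the 3 highest and 3 lowest of each list described among the main results, a fixed panel, the 6 highest and 6 lowest T47D-only genes at a mean of 2 RPKM or more, and the 3 largest differences each way in the test; any other gene was chosen after its values were seen, and a few genes the rule names are not reported here. Alternatives were other pseudocounts, filters, scalings and a fold of 1.5.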

Additional observations from a re-analysis of the deposited data

Results flagged for a closer look

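Among lists with at least 5 kept genes and among groups of genes by coding length, transcript length or GC content, 3 medians had a size of at least 0.1 in T47D and the opposite sign in both other lines. None of these differences was tested. The 6 kept genes of the cytochrome oxidase switch list had a median log2 ratio of 0.36 in T47D, against −0.02 in SUM1315 and −0.03 in SKBR3. They do not include COX4I2, so the switch between subunits was not measured. The shortest of 5 groups by coding length had a median of 0.26 in T47D, against −0.06 in SUM1315 and −0.13 in SKBR3, and the shortest of 5 by transcript length 0.18, against −0.08 and −0.10. All come from 1 library a side, and the median of the cytochrome oxidase genes was 0.00 once ratios were centred on genes of like coding length.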

How the results depend on the processing

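The number of T47D genes at a log2 ratio of 1 or more, 249, became 605 with a pseudocount of 0.1, 84 with a pseudocount of 5, 148 with a mean of 5 RPKM or more and 1139 at a fold of 1.5. The number at −1 or less, 103, became 201 and 25 with those pseudocounts, 180 when rescaled without ribosomal protein and mitochondrially encoded genes, 60 when centred within bins of coding length (added after seeing the data) and 780 at a fold of 1.5. In the test of T47D against the other lines, the 0 genes called higher became 2 with the filter set to 1 RPKM in at least 1 T47D library, and the 0 called lower became 1 with 1 RPKM in all 6 libraries; other settings gave 0. The 787 T47D-only genes became 409 at under 0.5 RPKM in the other lines. In each of these the cause was not tested, apart from the filters, which change the genes tested. Other pseudocounts cannot change the sign of a ratio, and the median of the genes at a mean of 5 RPKM, used for the shift, was only −0.025. Past the threshold a change of sign was therefore not possible under these settings. List medians within 0.1 of 0 can change sign with the scaling. Leaving out SUM1315 or SKBR3 leaves no residual degree of freedom, so that test was not run. No paired analysis was possible because each line and oxygen level has 1 library and the labels carry no replicate numbers; cell line is already a block. Depth limits the low end: of 194 higher genes with a transcript length, 120 lay 2 counting SEs or more past the threshold, as did 45 of 97 lower ones.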

Other observations

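Some RNAs that encode no protein were also in the polysome fractions. Of 18 kept host genes of small nucleolar RNAs 13 had a ratio above 0, with a median of 0.28 against 0.05 for all genes kept, and none was past 1 either way. TMEM107, a host gene that also encodes a protein, was at 5.67 RPKM in T47D normoxia and 11.1 in hypoxia. SNHG32 was at 37.2 and 53.3 RPKM and SNHG25 at 1.94 and 0.809. Among 4 kept nuclear long noncoding RNAs, NEAT1 was at 9.04 and 18.0 RPKM, MALAT1 at 15.2 and 26 and HOTAIR at 8.97 and 15.5, while TUG1 was at 22.4 and 15.8. MALAT1 had a ratio of 0.73 in T47D, −0.58 in SUM1315 and 0.12 in SKBR3.

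Replication-dependent histone genes, whose mRNAs lack a poly(A) tail, had a median of 0.06 over 25 kept genes, with H2BC12, the most abundant named here, at 346 and 432 RPKM. Of 6 kept metallothionein genes and their regulators all had a ratio above 0 but none reached 1, with MT2A, a zinc-binding protein, at 48.0 and 67.5 RPKM. In pH control 4 of 10 genes were above 0: SLC9A3R1, a scaffold of the apical membrane, was at 761 and 443 RPKM and ATP6V0D1, a proton pump subunit, at 17.5 and 8.90. The genes named in these 2 paragraphs were chosen after their values were seen.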
